A study of Canis lupus familiaris with 21 samples.

Results

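RNA in plasma extracellular vesicles was compared between companion dogs with canine cognitive dysfunction (CCD) and dogs labelled only as old. The comparison took the 4 CCD and 4 old vesicle libraries by their condition label, 8 of the 21 libraries of the series, and covered genes and repeat families after each library had been centred on its median gene. The CCD libraries carried the names EV_163, EV_354, EV_358 and EV_523, and the old libraries EV_250, EV_253, EV_264 and EV_519. The other libraries were 4 of vesicles from young dogs, which entered the fit and are given as ranges, and 9 of prefrontal cortex. All dogs were companion dogs, and neither exact age nor breed, sex or treatment was used. Whether every library came from its own dog is not stated in the labels; the p-values therefore reflect the spread between libraries, which may in part be technical.

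Extracellular vesicles are membrane-bound particles released by cells, and those in plasma come mostly from blood cells and the vessel wall, with contributions from other organs. They carry short and fragmented RNA, and tetraspanins such as CD9, CD63 and CD81 are used as their protein markers. Canine cognitive dysfunction is a syndrome of memory and behaviour loss in old dogs that is studied beside human Alzheimer's disease. Vesicle RNA was made into ribosome-depleted total RNA libraries, which, unlike polyadenylated libraries, also hold intronic, intergenic and repeat RNA. In such a bulk sample fewer vesicles from a cell type and less RNA per vesicle cannot be told apart.

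Repeat families took 74.9% to 82.9% of the reads in CCD and 76.3% to 83.6% in old libraries. The libraries held 33676552 to 39862510 assigned reads in CCD and 28955537 to 32697634 in old vesicles, so every CCD library was deeper than every old one (two-sided exact permutation p = 0.0286, which is the lowest value possible with 4 libraries a group, and 0.114 after adjustment over 28 library measures). Between 33230 and 34499 of 34981 genes had a read. The first component of the tested genes held 50.7% of the variance and crossed the groups: CCD EV_523 and old EV_519 lay at one end with young EV_502, and old EV_253 lay at the other with young EV_270. EV_502, EV_519 and EV_523 are the 3 vesicle libraries whose number has no cortex library. Spearman correlations over genes were 0.751 to 0.942 between CCD and old libraries, 0.837 to 0.939 within CCD and 0.744 to 0.925 within old libraries. Vesicle marker and biogenesis genes had a median expression percentile of 59.1 among genes in the vesicle libraries and 87.7 in cortex. All tested genes had medians of 54.7 and 54.3, so the marker transcripts did not stand out in the material labelled as vesicles. Such markers are used as proteins, so these transcript ranks do not measure the vesicle content.

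**Figure D1:**
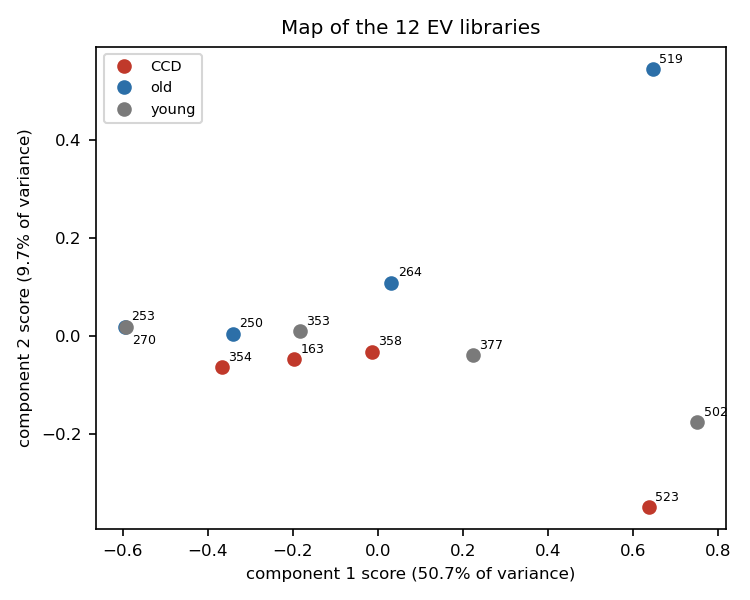
Scores of the 12 vesicle libraries on the first 2 components of centred log2 values; each point is a library with its number, coloured by group. CCD EV_523, old EV_519 and young EV_502 share the right end of component 1, which holds 50.7% of the variance, and the 3 groups do not separate along it.

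No gene and no repeat family differed between CCD and old vesicles at an adjusted p under 0.05. Of 31728 genes tested with limma, 0 were called (0%), and of 811 families 0 were called (0%). At an unadjusted p under 0.05 CCD values were higher for 563 genes (1.77% of those tested) and lower for 306 (0.964%), in all 2.74%. The 8 libraries fell into 2 ranges without overlap in 632 genes with higher (1.99%) and 298 with lower CCD values (0.939%), in all 2.93%. Random group labels would separate a gene with a probability of 0.0286, the smallest exact permutation p for 4 libraries a group. The share of separated genes was thus close to this probability, and the limma share of 2.74% lay below its own threshold of 0.05. Genes varied together over the libraries, so chance alone can give shares well above or below these figures. A lack of overlap in a single gene below is therefore not by itself a sign of a difference. By the unadjusted threshold CCD values were higher for 56 families (6.91%) and lower for 5 (0.617%), in all 7.52%. The groups did not overlap in 76 families (9.37%), 74 with higher (9.12%) and 2 with lower CCD values (0.247%). The family shares of 7.52% and 9.37% lay above the figures of 0.05 and 0.0286. Several families moved in step and their direction changed with the centring, and an excess over chance was not tested. On recovered reads edgeR also called 0 genes and 0 families, and DESeq2 called 1 gene, TFF2, which encodes a trefoil peptide of mucous epithelia and was lower in CCD (adjusted p = 0.0249, against an unadjusted limma p of 0.0201). TFF2 had 33.3 to 82.9 normalised counts in CCD libraries and 1031, 32.7, 323 and 9952 in old EV_250, EV_253, EV_264 and EV_519. The groups overlapped, with old EV_253 below every CCD library on the deposited scale, and old EV_519 was far above the rest. In counts simulated from these libraries limma recovered 5.97% of 2-fold, 59.7% of 4-fold and 87.9% of 8-fold planted changes. Most planted 2-fold changes were thus missed, and limma also called 5 genes without a planted change. Whether these rates hold for the libraries themselves, in which genes varied together, was not tested. The genes described below did not pass adjustment and are given as values.

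The balance of higher and lower values depended on the centring. Centring raised every log2 fold change by 0.26, so only small positive values could change sign without it. Of the 84 features named here 79 kept their sign, but most were named for a small p or a large difference. Their share therefore does not carry over to all genes. The median tested gene stood at 6.07 to 6.41 in CCD and 6.49 to 6.58 in old libraries, as log2 of the normalised count plus 1, so on the deposited scale the middle of the transcriptome was lower in every CCD library (exact permutation p = 0.0286, adjusted p = 0.114). The median log2 fold change of all genes was -0.27 on the deposited scale and -0.02 after centring. Without centring, 203 genes had higher and 1693 had lower CCD values by the unadjusted threshold, the opposite split. Overlap between groups is judged below on centred values, and the counts printed are on the deposited scale.

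The most abundant gene with a symbol was ADRA1B, the alpha-1B adrenergic receptor. Unnamed loci (LOC identifiers) were not described singly. LOC119877774 and LOC119877775, the only genes of higher mean, overlapped between the groups. The normalised counts of ADRA1B were 237642, 215945, 336256 and 504085 in CCD EV_163, EV_354, EV_358 and EV_523. In old EV_250, EV_253, EV_264 and EV_519 they were 197695, 100769, 180058 and 182174. For ADRA1B all CCD libraries were above all old libraries, and the young libraries spanned both, from 75608 to 505587. The log2 fold change was 1.19 ± 2.60 (SE, n = 4 and 4, unadjusted limma p = 0.654), and an exact two-sided permutation test gave p = 0.0286. Limma without a trend of the error over expression gave an SE of 0.60 and an unadjusted p of 0.0715. Both of these tests were added after the first result had been seen, and 2.93% of all genes also did not overlap.

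Of the 10 most abundant genes with a symbol, 7 did not overlap between the groups and were higher in CCD, against 1.99% of all tested genes. These 7 moved nearly in step and are not separate results. Besides ADRA1B they were HOXB7, a homeobox transcription factor, HDGF, a heparin-binding growth factor, and ADCK1, a mitochondrial kinase-like protein. The others were MLIP, a lamin A/C-interacting protein of muscle, SNX12, a sorting nexin, and ZC3H10, a zinc finger RNA-binding protein. The ADCK1 counts overlapped before centring (83480 in CCD EV_354 and 87717 in old EV_250). SNX12 had 32397, 30536, 45679 and 57778 normalised counts in CCD and 20835, 10965, 16531 and 20278 in old libraries. Its limma log2 fold change was 1.53 ± 0.80 (SE, unadjusted p = 0.0765), and its exact permutation p was 0.0286, the lowest value that 4 libraries a group allow. RN7SL1, the RNA of the signal recognition particle, MRM2, a mitochondrial rRNA methyltransferase, and GSK3B, a tau kinase, overlapped between the groups. Relative to ADRA1B over the 8 libraries, MLIP varied least of these genes, from 0.208 to 0.231, a range of 1.11-fold. The range was 1.24-fold for HDGF, 1.26-fold for HOXB7, 1.34-fold for ADCK1, 1.47-fold for ZC3H10 and 1.54-fold for SNX12, against 7.57-fold for RN7SL1.

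**Figure D2:**
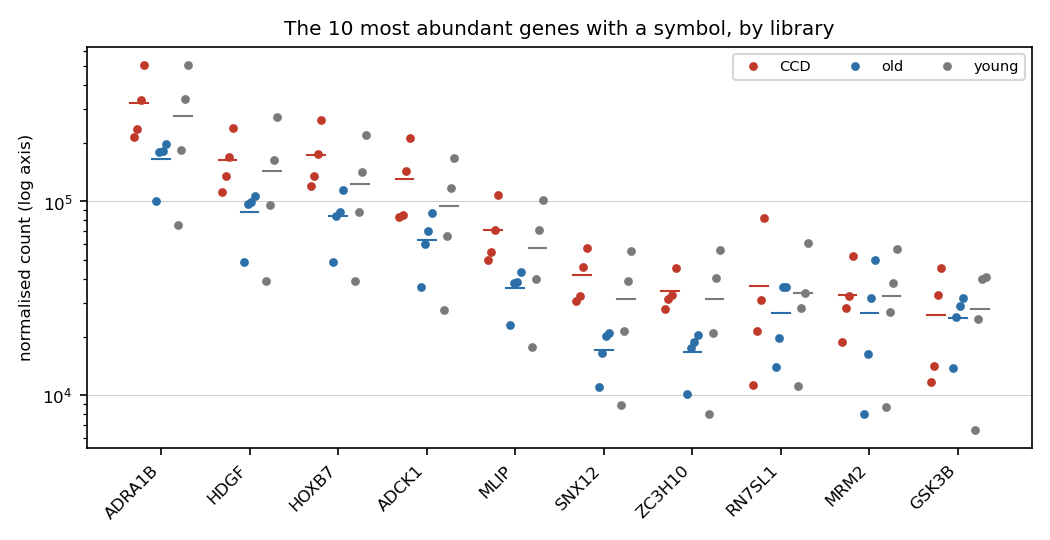
Normalised counts (log axis) of the 10 most abundant genes with a symbol; each point is a library and each bar a group mean, 4 libraries a group. Every CCD library lies above every old one for ADRA1B, HDGF, HOXB7, MLIP, SNX12 and ZC3H10, whereas ADCK1 overlaps on this uncentred scale and RN7SL1, MRM2 and GSK3B overlap on both; the young libraries span both groups.

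A search made after these values were seen found 61 features, 54 genes and 7 repeat families, whose ratio to ADRA1B varied by an SD of under 0.25 on the log2 scale over the 12 libraries, among 15406 features with a mean of at least 100. Families among them included X1_LINE, a CR1 element, UCON73 and MER121 of the hAT group, and LTR108a_Mam. Together these features held 4.72%, 4.16%, 6.20% and 8.94% of all normalised counts in CCD EV_163, EV_354, EV_358 and EV_523, and 3.70%, 1.83%, 3.36% and 3.44% in old EV_250, EV_253, EV_264 and EV_519. The set was chosen from the data, so it was not tested. The 7 abundant genes without overlap all belong to it, as do several genes named below, among them LIPA, FAM234B and UNC13A.

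The gene of smallest p was NDUFA13, a subunit of respiratory complex I. Its normalised counts were 129, 130, 136 and 132 in CCD EV_163, EV_354, EV_358 and EV_523, and 87.6, 80.2, 72.0 and 67.0 in old EV_250, EV_253, EV_264 and EV_519. The CCD libraries were close together and all above the old ones, and the young libraries, at 95.9 to 131, ran from between the groups into the CCD range. The log2 fold change was 1.04 ± 0.23 (SE), with an unadjusted limma p of 0.000555 and an adjusted p of 0.99995.

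GALR1, a receptor for the neuropeptide galanin, had 1795, 1197, 708 and 729 normalised counts in CCD and 654, 585, 468 and 647 in old libraries. LEP, the hormone leptin, had 338, 365, 309 and 309 in CCD and 222, 247, 156 and 224 in old libraries. Neither gene overlapped between the groups, and the high GALR1 values came from CCD EV_163 and EV_354. SEC11A, a catalytic subunit of the signal peptidase, had 440, 375, 261 and 173 in CCD and 71.3, 66.6, 53.7 and 144 in old libraries, a log2 fold change of 2.16 ± 0.63 (SE, unadjusted p = 0.00402). Young libraries held 43.7 to 471 for SEC11A and so covered both groups. The other genes of this kind were GLT8D2, a glycosyltransferase, FIBCD1, a chitin-binding membrane protein, TM2D1, BMP5, a bone morphogenetic protein, ALDH1A1, which makes retinoic acid, and GUCY2C, the guanylin receptor of the gut, with log2 fold changes of 0.74 (GUCY2C) to 1.69 (FIBCD1). FIBCD1 overlapped, with its lowest CCD value of 714 below an old value of 1051.

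Among genes without overlap and with a mean of at least 100, large differences were seen for PDE11A, a cyclic nucleotide phosphodiesterase, which had 774 and 872 normalised counts in CCD EV_163 and EV_354, 2852 and 3263 in CCD EV_358 and EV_523, and 349 to 854 in old libraries. On the deposited scale its ranges overlapped, and they separated after centring. TINAG, a basement membrane protein of the kidney tubule, had 1539 to 2516 in CCD and 518 to 1148 in old libraries. FAM234B had 10440 to 23408 in CCD and 4107 to 9779 in old libraries.

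In the other direction the smallest p was that of PANX1, which forms channels that release ATP. Its normalised counts were 258, 272, 309 and 201 in CCD EV_163, EV_354, EV_358 and EV_523, and 459, 399, 706 and 682 in old EV_250, EV_253, EV_264 and EV_519. Every CCD library lay below every old one, and the young libraries, at 212 to 316, overlapped the CCD range and lay below every old library. The log2 fold change was -0.83 ± 0.21 (SE), with an unadjusted limma p of 0.00182 that did not pass adjustment.

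PSMB3, a proteasome core subunit, had 40.2, 49.3, 49.7 and 17.8 normalised counts in CCD and 118, 98.2, 75.7 and 86.3 in old libraries. LRRC3B had 65.6, 73.9, 108 and 74.5 in CCD and 148, 129, 186 and 425 in old libraries. Both were lower in every CCD library, and old EV_519 was far above the rest for LRRC3B, whose log2 fold change was -1.05, or -0.68 without that library. CUL7, a ubiquitin ligase scaffold, had 284 to 517 in CCD and 686, 1203, 1901 and 23526 in old libraries, the highest in old EV_264, with a log2 fold change of -2.49 ± 0.81 (SE, unadjusted p = 0.0082) and -1.39 without that library. FCN2, a ficolin of the lectin complement pathway, had 50.9 to 77.7 in CCD and 117 to 162 in old libraries. DUSP10, a MAP kinase phosphatase, CA15, a carbonic anhydrase, H2BL1, a histone H2B variant, C6H16orf89, and SLC39A13, a zinc transporter, were lower without overlap, whereas SBK2 overlapped once centred.

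**Figure D3:**
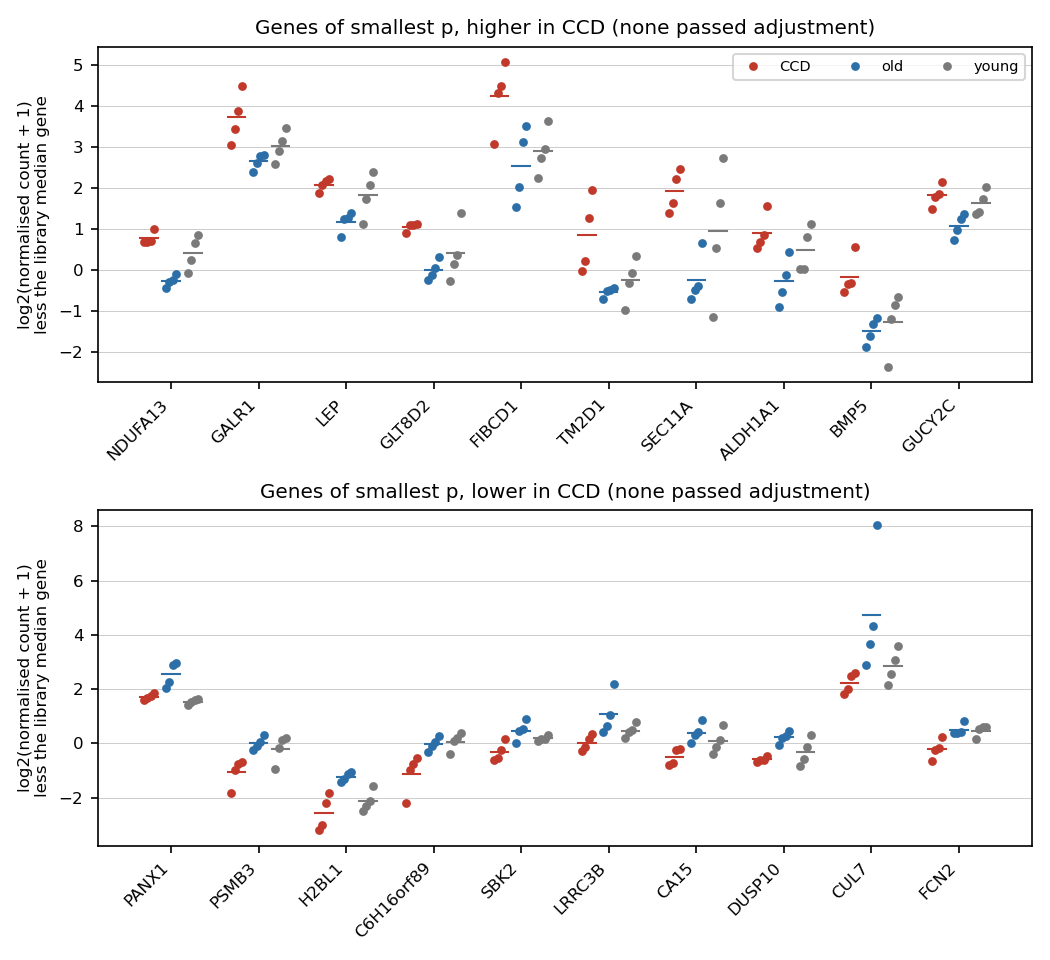
Centred log2 values of the genes with the smallest unadjusted p, higher (upper panel) and lower (lower panel) in CCD; each point is a library and each bar a group mean, 4 libraries a group. The CCD and old points separate for most genes, and the young points often lie between or across them; none passed adjustment over 31728 genes.

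The gene lists were described by their counts and medians beside those of all genes, whose median was -0.02 with 48.0% of the values above 0. No member of any of 39 lists was called. Cytosolic ribosomal protein genes, the structural parts of the ribosome, had a median log2 fold change of 0.54, with 72 of 74 members above 0. At an unadjusted p under 0.05, 4 members (5.41%) were higher, against 1.77% of all genes. For a score of each library, the centred value of each member was taken less that member's mean over all vesicle libraries. The score was the median of these values over the members. It was 1.62 in CCD EV_523 and -0.61 to -0.15 in the other CCD libraries, against -0.54 to -0.12 in old libraries. Among CCD libraries the list was thus high in 1 only. Without CCD EV_523 the median log2 fold change of the list was 0.03. RPL21 had 30.4, 52.0, 39.9 and 110 normalised counts in CCD and 18.4, 38.4, 28.1 and 17.0 in old libraries, and RPS4X had 66.6, 144, 109 and 397 against 80.0, 90.3, 75.7 and 90.8.

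Translation factors had a median of 0.24 with 26 of 32 above 0, and this median was -0.01 without CCD EV_523 and -0.02 on the deposited scale. EIF5B, which joins the ribosomal subunits at the start codon, did not overlap, at 848 to 1485 in CCD and 458 to 669 in old libraries. Of the 6 tested mitochondrially encoded genes all had values above 0 and a median of 1.33, and 0 were at an unadjusted p under 0.05. CYTB, of respiratory complex III, had 1520, 3305, 2346 and 2929 in CCD and 2996, 871, 2501 and 198 in old libraries, so the groups overlapped and old EV_519 was the lowest. Without old EV_519 the median of the list was 0.49. Among chaperones, HSP90B1 and HSPA9, of the endoplasmic reticulum and the mitochondrion, did not overlap and were higher in CCD, with log2 fold changes of 0.61 and 0.60, and DNAJB6 was lower by 0.46 with overlap. PSMD13, a proteasome regulatory subunit, was higher without overlap, opposite to PSMB3.

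Blood cells are a main source of plasma vesicles, and no member of their marker lists was called. After centring the list medians were -0.01 for platelets, 0.01 for red blood cells, 0.04 for monocytes, -0.03 for B cells, -0.08 for T and NK cells, where 11 of 27 members were above 0, and -0.17 for neutrophils, where 7 of 23 members were above 0. On the deposited scale the red blood cell list held 0.00921% to 0.0126% of counts in CCD and 0.0133% to 0.0168% in old libraries, and the neutrophil list 0.00597% to 0.00799% and 0.00832% to 0.0119%. The monocyte and B cell shares also did not overlap and were lower in CCD (each exact permutation p = 0.0286, adjusted p = 0.114). The platelet share overlapped, at 0.00849% to 0.0121% in CCD and 0.0108% to 0.0135% in old libraries (exact permutation p = 0.143), and so did the T and NK cell share, at 0.0128% to 0.0180% and 0.0125% to 0.0171% (exact permutation p = 0.486). Lower shares without overlap were not particular to blood cell lists. The skeletal muscle list held 0.0241% to 0.0272% in CCD and 0.0291% to 0.0345% in old libraries. Endothelial, microglia and cell cycle shares were also lower without overlap, whereas the neuron identity and astrocyte shares overlapped. The lower shares and the lower median gene were seen in the same libraries, and the part of the one in the other was not tested.

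Single markers gave values in both directions. ITGA2B, the platelet integrin alpha-IIb, had 182 to 230 normalised counts in CCD and 291 to 324 in old libraries, and MMRN1, a platelet and endothelial protein, 44.1 to 54.8 and 78.1 to 89.7. After centring, the log2 fold changes were smaller than these counts imply, at -0.28 ± 0.16 (SE) for ITGA2B and -0.47 ± 0.26 for MMRN1. PPBP, a platelet chemokine, overlapped, and its highest value, 268, was in CCD EV_523. CAMP, the neutrophil cathelicidin, was 23.1 to 42.0 in CCD and 55.6 to 77.8 in old libraries, with a centred value of -0.76 ± 0.39. CD79B, of the B cell receptor, was lower without overlap (-0.62 ± 0.31). LEF1, a T cell transcription factor, was higher without overlap at 155 to 162 in CCD and 125 to 147 in old libraries, although 16 of the 27 members of its list lay below 0. These markers were picked from lists that differed little. None of the 22 platelet, 23 neutrophil, 18 B cell and 22 endothelial members passed the unadjusted threshold, and 11 of the 22 platelet members lay above 0. In the T and NK cell list 2 of 27 passed it, both higher. CD9 had a log2 fold change of 0.01 ± 0.25 (SE, 95% interval -0.53 to 0.54), CD63 of -0.50 ± 0.34 and CD81 of -1.08 ± 0.46, the last with its highest value, 580 normalised counts, in old EV_253. Without that library the CD81 value was -0.59, and the CD63 value was -0.20 without old EV_250.

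Immune lists stood near the median of all genes, at -0.04 for antigen presentation, 0.00 for complement, -0.02 for type I interferon genes and -0.01 for NF-kB targets. IL1R1, the receptor of interleukin-1, had 390 to 526 normalised counts in CCD and 270 to 404 in old libraries and did not overlap once centred (log2 fold change 0.62 ± 0.24, unadjusted p = 0.0237). TNFAIP3, an inhibitor of NF-kB, was 454 to 639 in CCD and 305 to 537 in old libraries, and IL10, an anti-inflammatory cytokine, was 8.4 to 33.7 and 29.3 to 62.1. STING1, the adaptor that responds to the cyclic dinucleotide made by the DNA sensor cGAS, overlapped at 38.8 to 118 in CCD and 79.5 to 200 in old libraries. TAP2, a peptide transporter of antigen presentation, was lower without overlap.

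Brain lists did not stand apart either, with medians of -0.01 for synapse genes, -0.05 for neuron identity, 0.08 for astrocytes, -0.02 for myelin and 0.02 for microglia. Among synapse genes VAMP1, of the vesicle fusion complex, had 683, 546, 434 and 474 normalised counts in CCD and 357.8, 349, 322 and 380 in old libraries, a separation of the groups (0.84 ± 0.27, unadjusted p = 0.00887). UNC13A, a priming factor of synaptic vesicles and one of the genes in step with ADRA1B, was 13970 to 20424 in CCD and 5603 to 9879 in old libraries. VAMP1 and UNC13A were picked for their small p from a list in which 21 of 40 members lay below 0. In that list 2 members were at an unadjusted p under 0.05, both higher. GJA1, the astrocyte gap junction protein, was 186 to 252.9 in CCD and 114 to 169 in old libraries. GFAP, the astrocyte intermediate filament, overlapped, with a log2 fold change of -0.18 ± 0.25 (-0.40 without old EV_253).

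The amyloid and tau list had a median of 0.01 and the Alzheimer's disease risk genes one of 0.09. APP, the amyloid precursor, was 163.3 to 201 normalised counts in CCD and 132 to 194 in old libraries (0.50 ± 0.20, unadjusted p = 0.0223). MAPT, which encodes tau, was 162 to 201 in CCD and 242 to 247 in old libraries on the deposited scale, and after centring its groups overlapped with a log2 fold change of -0.17 ± 0.17. PPP2CA, the catalytic subunit of a tau phosphatase, was 41.1 to 47.0 in CCD and 75.7 to 109 in old libraries, lower without overlap (-0.67 ± 0.24, unadjusted p = 0.0155). SCIMP, an adaptor of immune cells at a risk locus, was 1307 to 1660 in CCD and 649 to 869 in old libraries, higher without overlap (1.26 ± 0.42, unadjusted p = 0.00917). APOE overlapped, at 75.7 to 268 in CCD and 77.9 to 452 in old libraries, and TREM2 overlapped at 38.8 to 109 and 34.1 to 99.5.

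Among other pathways, HMGCS1, an early enzyme of cholesterol synthesis, was 282 to 398 normalised counts in CCD and 192 to 257 in old libraries. LIPA, the lysosomal acid lipase, was 1062 to 2016 and 588 to 842, and CTSA, a lysosomal carboxypeptidase, was 73.5 to 105 and 154 to 167, so the lysosome list held a member in each direction. CHEK1, a DNA damage checkpoint kinase, was 685 to 1002 in CCD and 330 to 487 in old libraries. It had the highest value of the senescence, p53 and DNA damage list. In that list 24 of 31 members lay below 0, and the median was -0.12. The keratinocyte list had the lowest median of the 39, -0.28, with 2 of 14 members above 0, and KRT5, a basal keratin, was 106 to 160 in CCD and 190 to 249 in old libraries.

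**Figure D4:**
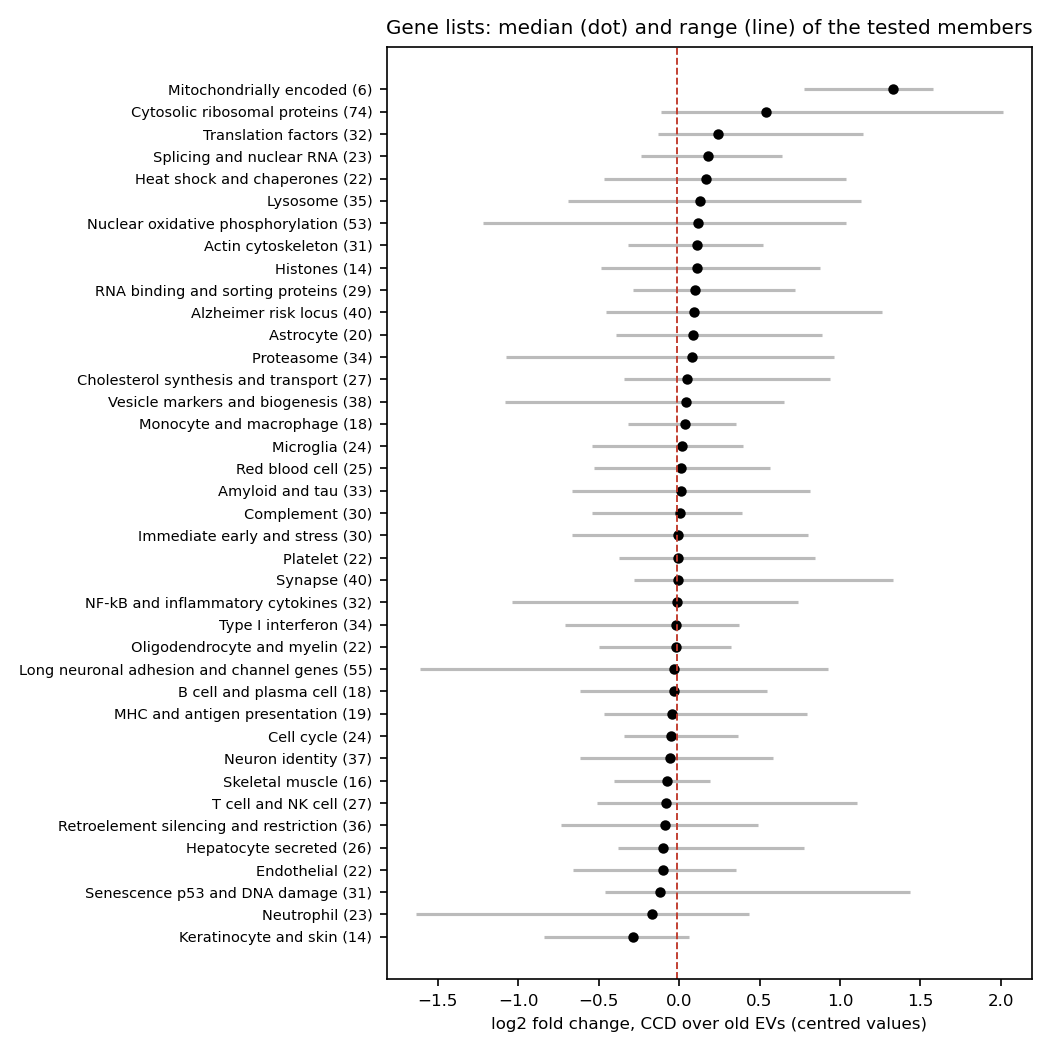
Log2 fold change of CCD over old vesicles for the 39 gene lists; the dot is the median and the line the range of the tested members, with their number in parentheses, and the dashed line is the median of all genes (-0.02). Mitochondrially encoded genes (1.33) and ribosomal proteins (0.54) lie at the top and the keratinocyte list (-0.28) at the bottom; most lists lie near 0.

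Repeat families, copies of transposable elements counted together by family, tended to lie above 0 after centring. The median of all 811 families was 0.05, and 64.2% were above 0. On the deposited scale CCD values were higher for 21 families and lower for 59 by the unadjusted threshold, so this direction also depended on the centring. By share of counts, LINE elements held 38.5% to 46.4% in CCD and 41.1% to 44.3% in old libraries, SINE elements 9.91% to 11.5% and 9.97% to 11.0%, and LTR elements 15.1% to 16.1% and 14.7% to 16.1%. The hAT superfamily, of DNA transposons, held 0.492% to 0.969% in CCD and 0.239% to 0.454% in old libraries (exact permutation p = 0.0286, adjusted p = 0.114), and UCON73 and MER121, both among the features in step with ADRA1B, made up 97.1% to 98.6% of this share in CCD and 93.1% to 96.8% in old libraries. Over the 11 hAT families the median log2 fold change was -0.05, with 7 below 0.

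L1 elements, the youngest LINE group, had a median of 0.12 with 74 of 90 families above 0, and all 14 of the older L2 families were above 0 with a median of 0.13. The 5 MIR families, ancient SINE elements, had a median of 0.36. Of these, 3 did not overlap and were higher in CCD, against 9.12% of all families, and 0 were at an unadjusted p under 0.05. The MIR score, made as for the ribosomal protein list, was 0.44 in CCD EV_523 and 0.04 to 0.08 in the other CCD libraries. It was -0.23 to -0.11 in old libraries, and the MIR median was 0.27 without CCD EV_523. ERVL-MaLR families, of LTR retroelements, had a median of 0.09, where 11 of 59 families lay higher and 1 lower by the unadjusted threshold, against 6.91% and 0.617% of all families. The most abundant families, L2a and MIRb, overlapped between the groups, with log2 fold changes of 0.25 ± 0.15 and 0.12 ± 0.19 that were negative on the deposited scale. L1 medians were -0.14 on the deposited scale and -0.15 under quantile normalisation, so the direction of the L1 group flipped with the scaling, and the L2 median was -0.13 on the deposited scale and 0.01 under quantile normalisation. The MIR median stayed above 0, at 0.10 and 0.08.

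The family of smallest p was X5a_DNA, of the Tigger group of DNA transposons. Its normalised counts were 931, 1040, 1136 and 1097 in CCD EV_163, EV_354, EV_358 and EV_523, and 883, 942, 713 and 867 in old EV_250, EV_253, EV_264 and EV_519. CCD EV_163 lay within the old range on this scale, and the groups separated after centring (0.56 ± 0.14, unadjusted p = 0.00125, adjusted p = 0.639). CarERV4-int, the internal part of a carnivore retrovirus, had 24449, 23768, 22448 and 22127 in CCD and 19838, 19465, 17450 and 17661 in old libraries, a separation on both scales. L1M4c, an old L1 family, had 56683 to 112605 and 34169 to 60793, and MER5C, of the hAT-Charlie group, 14542 to 21288 and 9059 to 11547. MLT1H-int, a MaLR internal part, had 71042 to 112909 in CCD and 30983 to 50077 in old libraries and was among the features in step with ADRA1B.

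Fewer families were lower. MLT1A-int had 2282 to 3716 normalised counts in CCD and 4725, 5504, 13539 and 4861 in old EV_250, EV_253, EV_264 and EV_519. L1M3d had 1972 to 3057 in CCD and 5238, 3909, 3979 and 14389 in the old libraries in the same order. Both separated the groups, with a high value in old EV_264 for the first and in old EV_519 for the second. Their log2 fold changes were -0.79 and -0.91, and -0.41 and -0.47 without the library of the high value. HERV16-int and MamGypLTR3 had log2 fold changes of -1.23 ± 0.65 and -1.15 ± 0.62 with overlap, each with its highest value, 376428 and 32852, in old EV_264; without that library they were -0.51 and -0.57.

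**Figure D5:**
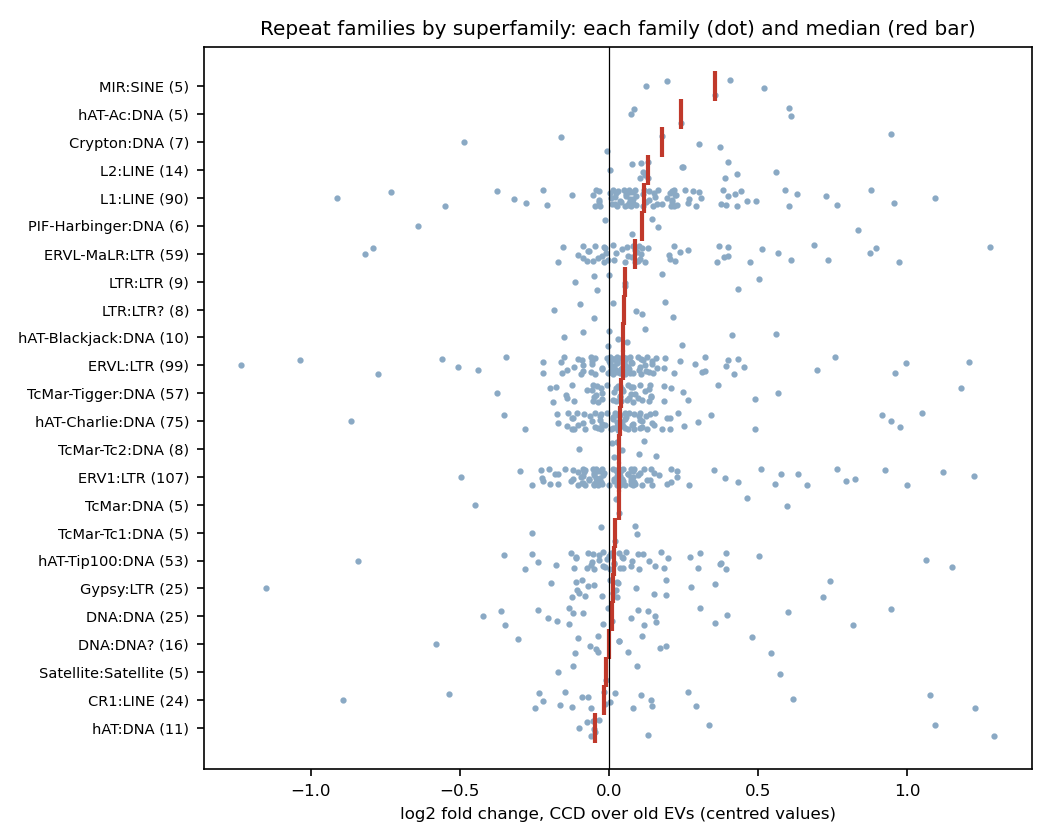
Log2 fold change of CCD over old vesicles for the tested repeat families by superfamily; each dot is a family, the red bar the median and the number in parentheses the families. MIR (0.36), L2 (0.13) and L1 (0.12) medians lie above 0 on centred values, and the spread within each superfamily exceeds the size of its median.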

How the data were processed

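Plasma vesicle RNA was sequenced as ribosome-depleted total RNA (150 bp paired-end, per the labels' protocols). STAR and DESeq2 are named in the submitters' processing notes. No source used here gives the build, annotation or strand setting. The deposited values are the authors' normalised counts, a signal and not raw counts; in every vesicle library 100% of values were whole multiples of its smallest value (tolerance 0.01), which gave the reads. Columns were matched to samples by number and condition. Values were taken as log2(value + 1) less the library's median tested gene. Genes and families with a mean of at least 10 over 12 vesicle libraries were fitted apart with limma 3.58.1 (trend, 3 groups, Benjamini-Hochberg over all tested). Library measures used exact two-sided permutation. Recovered reads were fitted with edgeR 4.0.16 and DESeq2 1.42.0 (R 4.3.3) as alternatives. The fit was tested on simulated data. Genes with a symbol (no LOC or Ensembl identifiers) were named by a rule: per direction the 10 of smallest p and the 5 largest differences without overlap (mean of at least 100), the 10 most abundant, up to 4 per list, and markers; families likewise. Members and lists were chosen with earlier results of these data known. Of the settings tried, 5 were added after results were seen: the repeat share as covariate, the first component as covariate, omission of the 3 libraries without cortex, limma without trend, and the exact test of abundant genes. No sequences are shown.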

Additional observations from a re-analysis of the deposited data

Results flagged for a closer look

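For each group of 4 libraries, the gap of a library to its nearest neighbour was taken relative to the range of the group. Of 194 groups, 22 held a library past Dixon's 95% critical value for 4 values. For independent groups chance gives about 1 in 20. These were groups of named features and library measures, several of which move in step, so no excess over chance can be read from the count. Values of genes and families are log2 levels less the library's median gene. CCD EV_523 stood above the other CCD libraries for NDUFA13 (0.989 against 0.681 to 0.698), TINAG (5.23 against 4.24 to 4.39), LEF1 (1.27 against 0.938 to 0.955), EIF5B (4.47 against 3.38 to 3.53), UNC13A (8.25 against 7.43 to 7.56) and GJA1 (1.92 against 1.20 to 1.32). The same library stood above the others for the families MER5C (8.31 against 7.50 to 7.60) and MIRb (14.35 against 13.89 to 13.92). CCD EV_354 lay below the other CCD libraries for GLT8D2 (0.899 against 1.09 to 1.12) and above them for DNAJB6 (1.45 against 0.822 to 0.930). CCD EV_163 lay below for CD79B (-0.743 against -0.375 to -0.300), and CCD EV_358 held the highest neutrophil share (0.00799% against 0.00597% to 0.00616%).

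Old EV_253 lay below the other old libraries for loci that moved in step: ADRA1B (10.04 against 10.94 to 11.02), HDGF (8.99 against 10.02 to 10.17), MLIP (7.91 against 8.67 to 8.82) and X1_LINE (7.99 against 8.89 to 8.99). Its shares in hAT families (0.239% against 0.427% to 0.454%) and in the 10 most abundant genes, unnamed loci included (2.83% against 5.37% to 5.55%) were also the lowest. Old EV_519 stood above the others for FCN2 (0.813 against 0.372 to 0.436) and TNFAIP3 (2.53 against 1.76 to 1.88), old EV_250 for CD63 (0.607 against -0.657 to -0.551) and old EV_264 for MLT1A-int (7.23 against 5.64 to 5.84).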

How the results depend on the processing

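No gene passed adjustment with limma on 31728 genes under the planned limma settings or with any of the 8 libraries left out, and edgeR called 0; other settings made few calls, and the cause was not tested. DESeq2 called 1 gene (TFF2, lower). The CCD and old libraries fitted alone gave 4 families, LTR81, MER4B-int, MLT1F-int and MLT1H-int, all higher (adjusted p = 0.0475). Of 4 fits added after results were seen, the repeat share as covariate called 1 gene (TNPO3) and 2 families (Charlie1b and MER5C), omission of the 3 libraries without cortex called 1 gene (LOC119864202), and the first component as covariate called 12 genes, all lower, and 1 family (MLT1E1). That component was made from the values being tested, so its calls are not independent of them. Limma without trend called 0. At an unadjusted p under 0.05, genes higher and lower in CCD numbered 203 and 1693 on the deposited scale, 1258 and 860 with library weights, 1211 and 832 with the repeat share and 1517 and 1137 with the first component; DESeq2 gave 483 lower. Families numbered 21 higher and 59 lower on the deposited scale, 34 and 26 under quantile normalisation, 123 and 26 with weights, 92 and 10 with the repeat share, 35 and 3 without the 3 libraries and 103 and 15 with the first component; 91 were higher with the 2 groups alone, and 10 (edgeR) and 12 (DESeq2) were lower. Gene lists with a median above 0 went from 20 to 2 of 39 on the deposited scale, and repeat superfamilies from 21 to 1 of 27, or to 7 under quantile normalisation. With 1 library left out, genes higher ranged from 309 (without CCD EV_523) to 654, families higher from 16 (without CCD EV_523) to 59, families lower from 2 to 15, lists above 0 from 11 (without CCD EV_523) to 28 and superfamilies above 0 from 10 (without CCD EV_163) to 26. Library differences of CCD less old that changed sign were genes with a read (-281 to 188) and the percent of reads in repeats (-1.55 to 1.21), LINE (-0.82 to 1.81), SINE (-0.29 to 0.24) and LTR elements (-0.29 to 0.17). Log2 fold changes that changed sign were, on the deposited scale GSK3B (-0.091), CD9 (-0.25), APOE (-0.10), L2a (-0.010) and MIRb (-0.14); under quantile normalisation GSK3B (-0.075), CD9 (-0.00724) and MIRb (-0.090); with weights RN7SL1 (-0.34), GSK3B (-0.24) and CD9 (-0.033); without the 3 libraries RN7SL1 (-0.40), GSK3B (-0.21) and CD9 (-0.17); and CD9 with edgeR (-0.00785) and DESeq2 (-0.000708). With 1 library left out these ranged from -0.25 to 0.49 (GSK3B), -0.12 to 0.11 (CD9), -0.22 to 0.63 (APOE) and -0.14 to 0.90 (RN7SL1). No paired analysis was possible because the CCD and old vesicle libraries share no number.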

Other observations

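Some features were high in 1 library alone. A search made after the data were seen found 38 features with at least 1000 normalised counts in 1 library and at least 10 times the next of the 12. USO1, a vesicle tethering factor, had 89827 normalised counts in old EV_519 and at most 179 elsewhere. PIAS4, a SUMO ligase, had 42892 in CCD EV_354 and at most 318 elsewhere, and RTL6 had 17292 in CCD EV_358 and at most 478 elsewhere. Among young libraries, NMNAT2, an axonal NAD synthesis enzyme, had 544687 in young EV_377 and at most 475 elsewhere, and KIFBP had 184796 in young EV_353 and at most 126 elsewhere. CUL7, described above, was one of them through old EV_264.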
